A study of Homo sapiens with 7 samples.

Results

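The mRNAs of 9 proteins of the large ribosomal subunit were examined for contacts with eIF3a in HEK293T: RPLP1, RPL41, RPL22, RPL3, RPLP0, RPL4, RPL5, RPL11 and RPL13A. They were found by position, as entries of the eIF3a list that overlapped, on the gene's strand, a window on hg19 around each gene. Of the 4013 entries in the list, 13 lay in the windows, and they formed 9 read clusters with 323 reads, against 3604 clusters and 39197 reads in the whole list. Of the windows, 8 held at least 1 cluster, RPL13A held 2, and RPL3 had no row. The genes were proposed with earlier results of this list in view, so their levels are a description and were not tested against other genes.

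The series held 7 samples of human cell lines. For eIF3a, 2 replicates of PAR-iCLIP were made from HEK293T cells, an established line of human embryonic kidney origin with the large T antigen of SV40. In this method 4-thiouridine enters new RNA (here over 8 h), ultraviolet light (here at 354 nm) joins protein to RNA, and an antibody against the protein (here eIF3a) pulls down the RNA that is then sequenced. The cells of both replicates were otherwise given no treatment in the labels, and the file does not assign reads to a replicate. The other 5 samples were m6A libraries of HEK293T and HepG2, a liver carcinoma line, with or without heat shock (42 °C for 1 h, then 37 °C for 6 h), and they were not analysed here. The report therefore rests on 1 list without replicate error, without a control immunoprecipitation and without a measure of mRNA amount, so more contact per mRNA and more mRNA cannot be told apart.

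The large subunit joins amino acids into protein, while eIF3 works earlier, on the small subunit, where it helps to bring an mRNA to the ribosome; eIF3a is the scaffold of that complex. Most mRNAs of ribosomal proteins are abundant and short-leadered and begin with a 5' terminal oligopyrimidine tract (TOP), a run of C and U at the cap through which growth signals control their translation. Many of their genes carry small nucleolar RNAs in introns and have processed pseudogenes, copies of the mRNA inserted elsewhere in the genome.

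Since most clusters lay near the 5' edges of the windows, the bases around each annotated start are shown first. They come from RefSeq on GRCh38.p14, a newer build than that of the list, and were matched by symbol for 8 of the 9 genes; RPL5 was not in the table. Each line gives the 10 bases before the annotated start and the 20 bases from it on, in the direction of the gene, with the longest run made only of C and T in capitals.
RPLP1, chr15:69452808-69452837, plus strand: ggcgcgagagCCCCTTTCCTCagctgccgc
RPL41, chr12:56116623-56116652, plus strand: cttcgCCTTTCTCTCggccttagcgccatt
RPL22, chr1:6199576-6199605, minus strand: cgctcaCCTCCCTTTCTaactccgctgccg
RPL3, chr22:39319604-39319633, minus strand: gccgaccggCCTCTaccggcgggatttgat
RPLP0, chr12:120201092-120201121, minus strand: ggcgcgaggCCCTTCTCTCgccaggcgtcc
RPL4, chr15:66504836-66504865, minus strand: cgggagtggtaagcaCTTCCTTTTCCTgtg
RPL11, chr1:23691769-23691798, plus strand: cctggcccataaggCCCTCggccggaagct
RPL13A, chr19:49487598-49487627, plus strand: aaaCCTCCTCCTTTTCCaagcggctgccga

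In 6 of the 8 genes the run was 10 to 14 bases long. It was longest in RPL13A, with 14 bases, a length that 1.36% of the 35116 promoters in the table reached in the same 30 bases. In RPL4 it was 12 bases (2.51% of promoters), in RPLP1 and RPL22 it was 11 (3.47%), and in RPL41 and RPLP0 it was 10 (5.83%). Positions are counted with the annotated start as base 1 and the base before it as -1. The runs began at -7 in RPL13A, -5 in RPL41, -4 in RPL22, -1 in RPLP0, 1 in RPLP1 and 6 in RPL4. Only the run of RPLP1 began at the annotated start, so the other lengths are not lengths of a tract from that base. Where the cap lies was not analysed here. RPL3 and RPL11 each had only 5 bases, a length that 48.9% of promoters reached. For RPL11, a run of 12 bases lay further on, within the 60 bases from 10 before the annotated start, as in 4.36% of promoters; in RPL3 the longest run in those bases remained 5. The annotated start was a C in 6 of the 8 genes, against 14.7% of promoters. The 30 bases held between 4 T (RPL11) and 11 T (RPL41), with a median of 6.5 beside 6 over all promoters. T in the gene is U in the RNA, the base that 4-thiouridine replaces. The letters GGACT, a common setting of m6A, were in the 50 bases from the start of 0 of the 8 genes on the gene's own strand, and in 4.90% of all promoters. On the other strand (AGTCC) the counts were 0 of 8 and 4.91%. These are letters of a genome sequence, not sites of contact or of m6A.

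RPL41 had the most reads. It encodes a very small basic protein of the large subunit. Its cluster on chromosome 12, plus strand, was listed at 56510386 to 56510571 and held 94 reads over 239 nt (exact 95% Poisson interval 76.0 to 115). The score, which is the highest read coverage within the cluster, was 22, and only 3 of the 3566 clusters on chromosomes proper (primary clusters, without alternate sequences) scored higher. In reads, 9 of them held more. RPL41 was also the only window whose cluster was listed in 3 entries. Besides the whole stretch of 186 nt, there was an entry of 58 nt that began at the same base, and one of 13 nt that ended at the same base, with 115 nt between these short entries.

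RPLP1 was next, with 90 reads (72.4 to 111). With its partner RPLP2 it forms the acidic stalk to which elongation factors bind. Its cluster, listed at 69745159 to 69745287 of chromosome 15 (plus strand), extended over 211 nt, and 11 primary clusters held more reads. Its score of 16 was exceeded by 96 primary clusters, and the reads formed no single summit. RPLP0, which anchors that stalk to the ribosome, held 30 reads over 106 nt (20.2 to 42.8) at 120638587 to 120638642 of chromosome 12 (minus strand), with a score of 13. Among the stalk proteins, the interval of RPLP1 lay wholly above that of RPLP0, with the limit on these intervals named above.

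RPL5 and RPL11 bind 5S ribosomal RNA together, and outside the ribosome the same complex restrains MDM2, the ubiquitin ligase of p53. RPL5 held 38 reads over 122 nt (26.9 to 52.2) at 93297594 to 93297671 of chromosome 1 (plus strand), with a score of 20 that 19 primary clusters exceeded. RPL11 had the lowest number of the 8 genes with a cluster, 10 reads over 70 nt (4.80 to 18.4), at 24018274 to 24018313 of the same strand, with a score of 8. The intervals of these partners did not overlap, under the same limit of 1 read per position.

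RPL4, which lines part of the exit tunnel for the growing protein, held 24 reads over 74 nt (15.4 to 35.7), at 66797129 to 66797189 of chromosome 15 (minus strand). Its score of 19 was high for so few reads, and 37 primary clusters exceeded it. RPL22, which also binds RNA outside the ribosome and is not needed for ribosome assembly, held 13 reads over 91 nt (6.92 to 22.2), at 6259634 to 6259679 of chromosome 1 (minus strand), with a score of 11. RPL13A, known for an extra-ribosomal role in silencing inflammatory mRNAs, was the only gene with 2 clusters. The first, at 49990861 to 49990893 on the plus strand of chromosome 19, held 9 reads over 34 nt with a score of 9. The second, at 49993736 to 49993760, held 15 reads over 85 nt with a score of 7. The gene total was 24, the same as for RPL4.

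**Figure D1:**
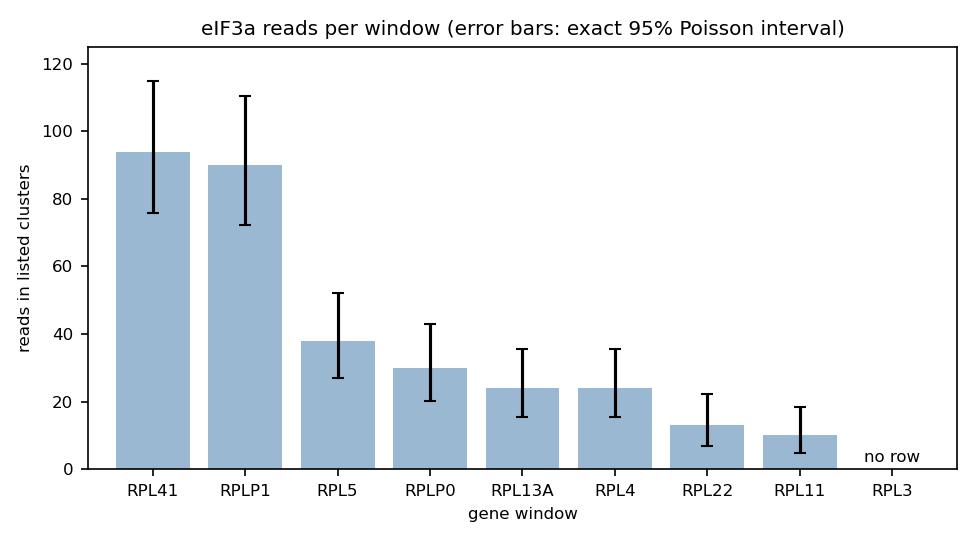
Reads in listed clusters for each gene window, with exact 95% Poisson intervals as error bars, which cover counting error only. RPL41 (94) and RPLP1 (90) stand above the other windows, whose totals run from 10 to 38, and RPL3 had no row.

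In order of reads the genes were RPL41, RPLP1, RPL5, RPLP0, RPL13A and RPL4 (tied), RPL22 and RPL11. The only neighbours in this order whose intervals did not overlap were RPLP1 and RPL5. RPL41 and RPLP1 together held 184 of the 323 reads, or 57.0% (95% Wilson interval 51.5 to 62.3). Reads are summed here over clusters of different length. Per 100 nt of cluster, RPLP1 had 42.7 reads, RPL41 39.3, RPL4 32.4, RPL5 31.1 and RPLP0 28.3. The first cluster of RPL13A had 26.5 per 100 nt and the second 17.6, while RPL22 and RPL11 each had 14.3. The span from lowest to highest was thus narrower per length than in total reads. By highest score the order was RPL41, RPL5, RPL4, RPLP1, RPLP0, RPL22, RPL13A and RPL11. With reads of 25 nt and no position that began 2 reads, a score here could not pass 25, and RPL41 (22), RPL5 (20) and RPL4 (19) lay near that ceiling, so the order among them by score says little.

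All 9 clusters held more reads than the median primary cluster, which had 6. The members ranged from 9 to 94 reads with a median of 24, and their scores from 7 to 22 with a median of 13, beside a median score of 5 over the primary list. Their reads per 100 nt had a median of 28.3, beside 10.7. No test was made of these differences, since the genes were chosen with the list's results known. RPL3, which helps to form the peptidyl transferase centre, had no row on either strand of its window, 39708880 to 39716400 of chromosome 22. The threshold for a listing is not given in the sources used here, and clusters of 2 reads were listed elsewhere, so the missing row is no measure of contact with RPL3 mRNA.

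**Figure D2:**
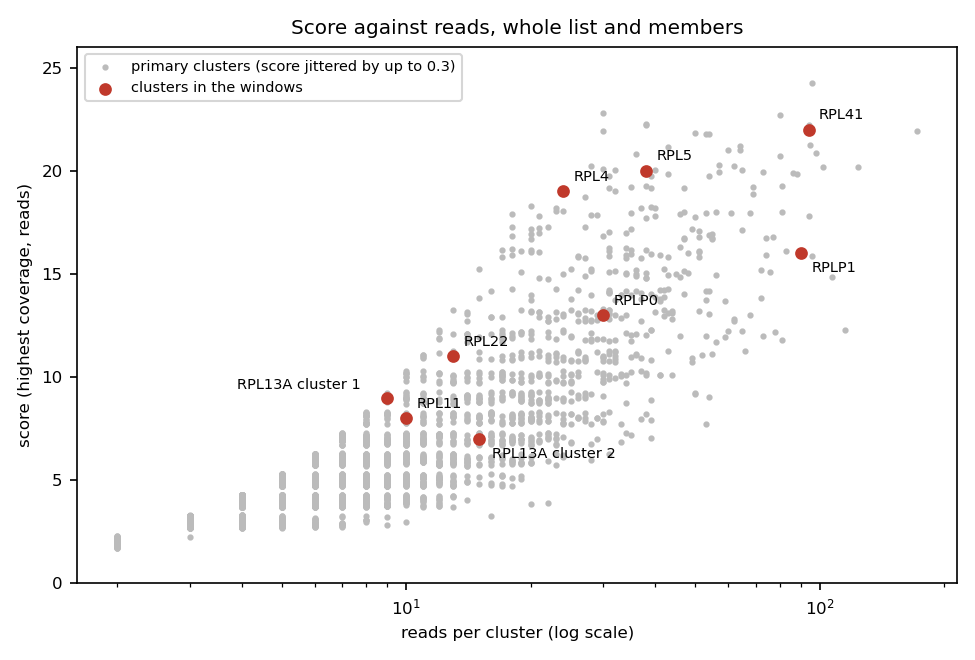
Score (highest coverage, in reads) against reads per cluster on a log scale, for the 3566 primary clusters in grey and the 9 clusters of the windows in red. RPL4 (24 reads, score 19) and RPL5 (38 reads, score 20) lie high for their reads, and RPLP1 (90 reads, score 16) lies below RPL41 (94 reads, score 22).

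The clusters had different shapes. In RPLP1 and RPL41 the reads were spread out. The summit of RPLP1, at 82 to 84 nt from the 5' end of the cluster, was covered by 17.8% of its reads (95% Wilson interval 11.2 to 26.9), and coverage reached 15 again at a place that shared no read with the summit. In RPL41 the summit lay at 84 to 85 nt and took 23.4% of the reads (16.0 to 32.9), with a separate height of 15. RPLP0 was intermediate, with 43.3% of its reads at the summit (27.4 to 60.8) and a separate height of 7. RPL5 had 52.6% (37.3 to 67.5) at a summit 43 to 46 nt in, and a shoulder of 11 beyond it.

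The remaining clusters near the 5' edges were compact. In RPL4, 79.2% of the reads (59.5 to 90.8) covered the summit at 22 to 25 nt, in RPL22 84.6% (57.8 to 95.7), and in RPL11 80.0% (49.0 to 94.3). In the first cluster of RPL13A all 9 reads overlapped at 10 to 25 nt (100%, 70.1 to 100). The second cluster of RPL13A was of the spread kind despite its few reads, with 46.7% at the summit (24.8 to 69.9) and heights of 7 and 6 at places that shared no read. The median over the primary clusters with 9 to 94 reads, the range of the members, was 47.4%. The share a cluster can reach falls with its reads above 25, so this median is no like measure for each member. For the same reason the division into spread and compact clusters follows in part from read number.

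**Figure D3:**
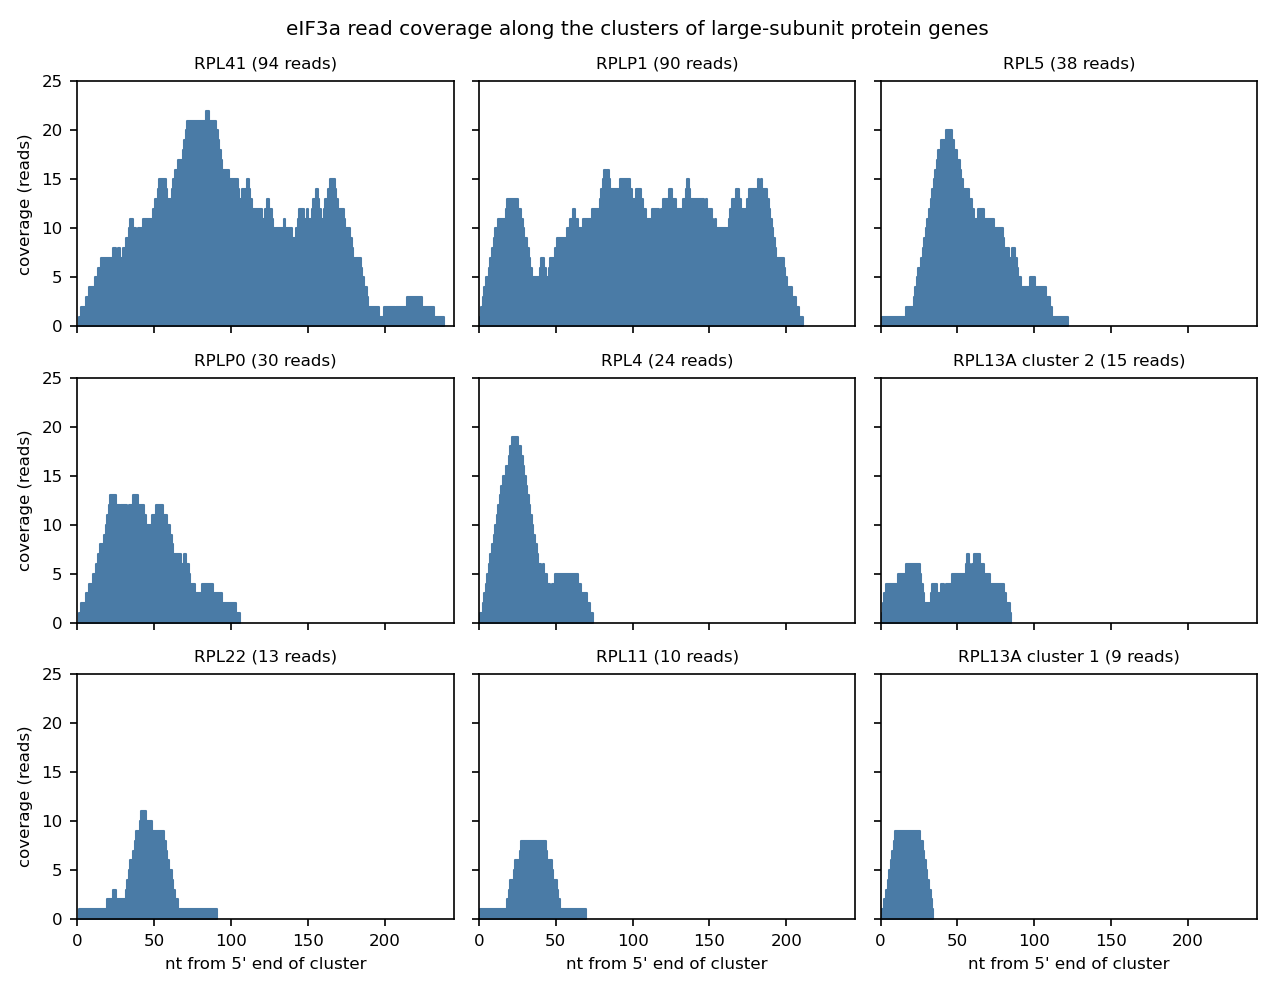
Read coverage along each of the 9 clusters, in reads, against nt from the 5' end of the cluster, with the same axes in all panels. RPL41 and RPLP1 have the longest profiles shown, 239 and 211 nt, though shorter than the median of clusters with like reads. RPL5 and RPL4 have single steep summits of 20 and 19, and the first cluster of RPL13A is a block of 34 nt.

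Single read ends were compared at the scale of bases, where the runs of adjacent ends did not follow the division into spread and compact clusters. Each of the 323 reads had a 5' end of its own, so no position held 2 reads. In iCLIP the 5' end of a read is read as lying next to the crosslinked base, because reverse transcription tends to stop there. In RPL5, 17 reads began at 17 adjacent positions, 22 to 38 nt from the 5' end of the cluster, and only 10 primary clusters, RPL5 included, had a run as long. RPL4 had 14 adjacent ends at 3 to 16 nt, a length reached by 21 primary clusters. RPL41 had 12 at 61 to 72 nt, reached by 46 (1.29%). The first cluster of RPL13A had 8 adjacent ends among its 9 reads. RPLP1, with 90 reads, also had a run of no more than 8. The others had runs of 5 (RPLP0), 4 (RPL22 and the second RPL13A cluster) and 3 (RPL11), beside a median of 2 in the primary list.

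**Figure D4:**
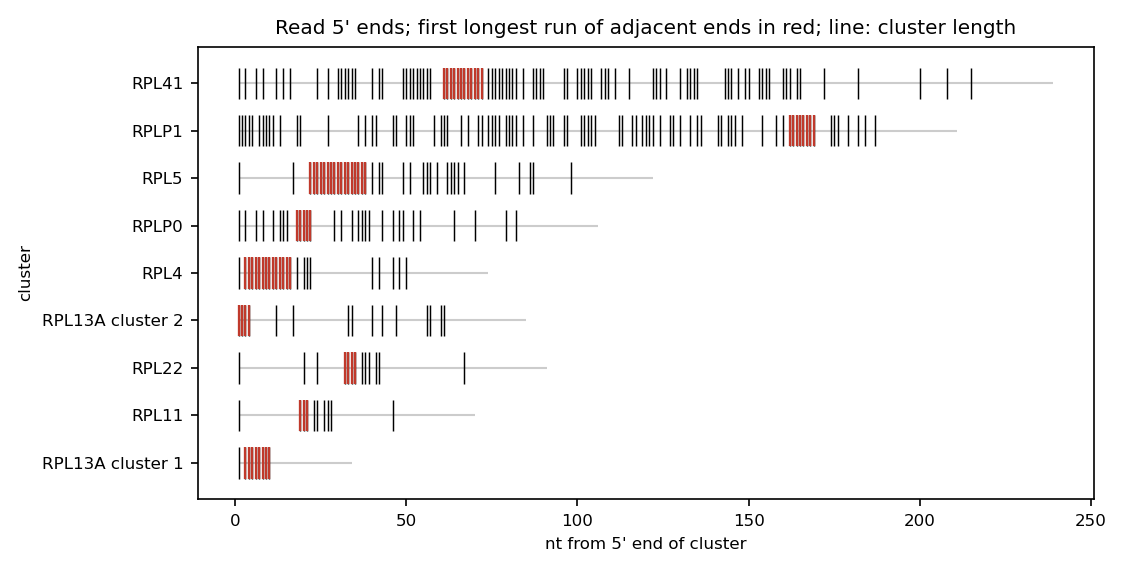
Positions of the read 5' ends (vertical ticks) along each cluster, in nt from its 5' end, with the first longest run of adjacent ends in red and the cluster length as a grey line. RPL5 and RPL4 show unbroken runs of 17 and 14 ends, whereas the ends of RPLP1 are scattered over the cluster with a longest run of 8.

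Runs grow with the number of reads, so each cluster was set beside the other primary clusters whose reads lay within 20% of its own. For RPL5 there were 134 such clusters, with a median run of 5, and 1 had a run as long. For RPL4, 2 of 226 had a run as long (median 4), and 2 scored as high, where the median score was 10. For the first cluster of RPL13A, 1 of 485 had a run of 8 or more (median 2), and 1 was as short as its 34 nt, where the median length was 78 nt. RPL41 scored higher than most of its like, with 2 of 18 as high, but its run was equalled or passed in 4. RPLP1 lay among its like: 17 of 24 scored as high and 15 had a run as long. The same held for RPLP0, where 79 of 195 scored as high and 103 had a run as long. For RPL22, 25 of 349 scored as high and 88 had a run as long. For RPL11 the counts were 124 and 232 of 664, and for the second RPL13A cluster 253 and 122 of 385. In length, every cluster lay below the median of its like, RPL41 and RPLP1 included. RPL41 had 239 nt beside a median of 297.5 nt, and 7 of 18 were as short. RPLP1 had 211 nt beside 295.5 nt, and 6 of 24 were as short. These are ranks within the list and not tests. The reads are short and all of 25 nt, and how duplicates were removed is not given in the sources used here, so the part of read trimming and duplicate removal in these runs was not tested.

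The clusters lay close to the 5' edges of the windows, which follow the gene ends only roughly. In 8 of the 9 clusters the listed interval began 4 to 408 nt from that edge, with a median of 47.5 nt. RPL5 was nearest, at 4 nt of a window of 9901 nt, followed by RPL4 at 11 nt of 6401 and RPL11 at 14 nt of 4661. RPL41 lay at 36 nt of 1301, RPLP1 at 59 nt of 2801 and the first RPL13A cluster at 61 nt of 4771. RPL22 lay at 121 nt in the longest window, 14721 nt. RPLP0 was farthest of these, at 408 nt of 4571, or 8.93% of the window. The cluster nearest the edge in each window held 308 of the 323 reads, or 95.4% (95% Wilson interval 92.5 to 97.2). Apart from RPL13A, each window with a row held a single cluster, which counts in full at any distance. Only RPL13A could lower this share, so it does not measure closeness to the edge. The series is about 5' untranslated regions, and whether the list had been limited to such regions is not given in the sources used here, so this placement cannot be told apart from the way the list was made.

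The second cluster of RPL13A was the exception, 2936 nt from the 5' edge or 61.5% of the way along the window, and 2842 nt from the first cluster. Its listed interval of 25 nt was 29.4% of the cluster. In RefSeq the small nucleolar RNA genes SNORD32A, SNORD33, SNORD34 and SNORD35A lie inside RPL13A. Whether the cluster falls on one of them, on an exon or on an intron was not analysed here, as no annotation of hg19 was used. RPL4 and RPL3 also contain 4 such genes each, and RPL5 contains 2 (SNORD21 and SNORA66), but no listed cluster lay in the inner parts of those windows. RPLP1, RPL41, RPL22, RPLP0 and RPL11 contain none.

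**Figure D5:**
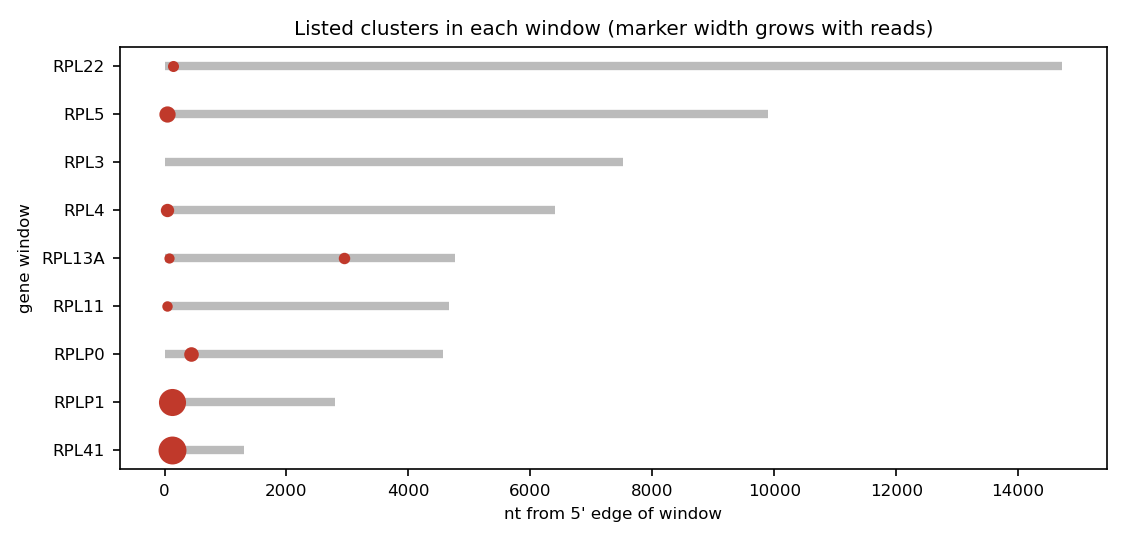
Listed clusters along each gene window, in nt from its 5' edge, with grey bars for the windows and red markers whose width grows with reads. In 8 windows a cluster sits within 408 nt of the 5' edge, the second RPL13A cluster lies 2936 nt in, and the RPL3 window is empty.

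Most of the listed intervals showed only part of their cluster. All but the first RPL13A cluster were listed shorter than their coverage profile by more than the usual 1 nt, by 13 nt (RPL4) to 82 nt (RPLP1), that is 8 of 9 (88.9%), beside 41.4% of the primary clusters and 58.8% of those with 9 to 94 reads. Which end is missing is not recorded. If the listed part is the 5' end of each cluster, the summit lay within the listed interval in 8 of 9 clusters; if it is the 3' end, in 7 of 9. Summits were 119 nt from the window edge in the median with the first reading and 66 nt with the second. For RPL5 these distances were 46 and 2 nt, for RPL4 32 and 19, for RPL11 41 and 11, for RPL41 119 and 66, and for RPLP1 140 and 58.

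No cluster lay on the opposite strand in any of the 9 windows, and the nearest opposite-strand cluster was between 104975 nt (RPL41) and 1762044 nt (RPL22) away, with a median of 325502 nt beside 355923 nt over the primary list. An opposite-strand neighbour within 10000 nt is rare in the list: 0 of the 9 clusters had one, beside 6.39% of the primary list. On the same strand the nearest neighbour, apart from the RPL13A pair, lay between 11864 nt (RPL41) and 2071876 nt (RPLP0) away. With that pair included, the median on the same strand was 246775 nt beside 36963 nt, and 2 of the 9 clusters had a neighbour within 10000 nt, beside 43.5% of the primary list. These differences were not tested. None of the 9 coverage profiles recurred at another locus in the list, which held 3113 distinct profiles among 3604 clusters. How often profiles of like read numbers recur was not counted, so this is no measure of how reads were placed. By symbol, RefSeq lists 35 pseudogenes of RPL5, 25 of RPL13A and 22 of RPL22, then 13 each of RPLP1 and RPL3, 12 of RPLP0, 7 each of RPL41 and RPL4, and 5 of RPL11. How reads that fit both a gene and its pseudogenes were placed is not given in the sources used here, and its part in these read numbers was not tested.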

How the data were processed

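Reads were aligned to hg19 with Bowtie, per the submitters' processing notes. The sources used here give no version, cluster caller, filter or rule for pooling replicates. For the series, the authors deposited 1 list for the series, with a signal per entry, the highest coverage of the cluster in reads, without normalization, and a coverage profile of whole reads. The signal equalled the profile's maximum in every entry. Profiles were split into reads: all 3113 distinct profiles split exactly at 25 nt, and 0 at any other length from 20 to 30 nt. The splitting was run on 3113 simulated profiles built from reads of 25 nt, of which 3113 were recovered. Recovery checks the computation only, not whether the listed profiles consist of such reads. Of the pairs of copies on opposite strands, 10 were mirrored and 0 identical, so profiles follow the genome and not the strand. These pairs do not show in which direction along the genome. Profiles were taken to run from left to right, and those of minus-strand genes were turned. Positions counted from the 5' end of a cluster rest on this. Entries of 1 profile at 1 place were counted as 1 cluster. An overlap of 1 nt with a window was enough. Coordinates count from 1. Poisson and Wilson intervals cover counting error only, and library depth is unknown. They take no account of the limit of 1 read per position in these clusters.

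All 9 genes are named. The genes and the measures were chosen with earlier results of these data known. Other large-subunit genes and transcript positions, which need an hg19 annotation, were not analysed here. Promoter letters came from RefSeq on GRCh38.p14, and no coordinates were moved between builds. Alternatives concerned the score, merging, overlap, window width and order. Python 3.11.15, numpy 2.4.6, pandas 2.3.3, scipy 1.17.1 and matplotlib 3.10.9 were used.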

Additional observations from a re-analysis of the deposited data

How the results depend on the processing

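The number of clusters in the windows was 9, and again 9 with scores at or above the median of 5, with clusters merged within 50 nt, with intervals wholly inside the windows and with windows widened by 1000 nt. It was 13 as listed entries. The lowest score in the windows was 7, and the RPL13A pair lay 2842 nt apart. All other same-strand neighbours lay at least 11864 nt away. The score limit, the merging and the widening could thus change neither the 9 clusters nor their reads. The reads numbered 323 with the score limit, with intervals wholly inside the windows and with widened windows; counting occupied read starts had to give 323 too, as no position began 2 reads. The share in the cluster nearest the 5' edge of each window, which only RPL13A could lower, was 95.4% of reads and 92.3% of listed entries. Ordered by highest score instead of reads, 2 of the 8 genes, RPL41 and RPL11, held the same place. The reading of shortened intervals was added after the data were seen: the median summit distance was 119 nt from the window edge, and 66 nt with the listed part as the 3' end. No replicate could be left out. No paired analysis was possible because reads of the eIF3a replicates are not separated in the list, and m6A libraries were not used here. Clusters of 9 to 15 reads carry wide counting intervals, and library depth is unknown.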
